A study of Mus musculus with 4 samples.

Results

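The genes described here form the route from the insulin receptor to the FOXO transcription factors in HT-22 cells, an immortalized cell line of mouse hippocampal origin. They were listed by name as the 2 receptors Insr and Igf1r, the adaptors Irs1 and Irs2, the PI3K subunits Pik3ca and Pik3r1, the kinases Akt1 and Akt2, and the factors Foxo1 and Foxo3. All 10 listed genes had at least 1 transcript in the deposited table, and all 10 had a mean of at least 1 FPKM (a read density corrected for transcript length and library size). They account for 24 of the 25822 matched transcripts and for 10 of the 10604 genes compared. The annotation lists 53 transcripts for them, and the other transcripts were not analysed here.

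RNA-Seq was performed on 4 libraries, 1 for each group. Ctrl cells carried a negative control lentivirus, and PGC-1α cells carried a lentivirus that overexpresses PGC-1α, a transcriptional coactivator of mitochondrial and metabolic genes. The labels give the genotype of Ctrl and Ctrl+OGD as wild type, and the virus-treated cells were selected with puromycin. Ctrl+OGD and PGC-1α+OGD cells had in addition gone through oxygen and glucose deprivation (OGD), which lasted 2 h in serum-free and glucose-free medium under 5% CO2 and 95% N2. After OGD the cells spent 24 h in normal medium, so these libraries show the state after recovery and not the state during deprivation. With 1 library per group, replicate error is unknown throughout and no p value is given, and a fold change compares libraries and not conditions. In a bulk sample, fewer cells of a type and less RNA per cell cannot be told apart.

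Insulin and the insulin-like growth factors bind receptor tyrosine kinases, which phosphorylate IRS adaptors. The adaptors recruit PI3K, a lipid kinase made of a catalytic and a regulatory subunit, and its product brings AKT to the membrane, where it is activated. AKT phosphorylates FOXO factors, which then leave the nucleus, so that genes for cell cycle arrest, cell death, stress defense and fuel choice are less transcribed. Much of this control acts on phosphorylation and location of proteins, which RNA levels do not measure.

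Insr differed most among these genes. Its mRNA was lowest in Ctrl+OGD and highest in PGC-1α+OGD, with a log2 fold change of 1.23 between them, and it was lower, not higher, in PGC-1α than in Ctrl (-0.53). Irs2 and Foxo3 were at least 1.5-fold lower in Ctrl+OGD than in Ctrl, and their values after OGD were close in both types of cells. Neither stayed past 1.5-fold under every processing (Irs2 -0.57 after median ratio scaling, Foxo3 -0.52 with transcripts weighted by length). Pik3r1 had similar sums in 3 of the 4 libraries, but which of its 2 main transcripts led, from start sites 75587 bases apart, differed between libraries. When its transcripts were weighted by length, the sums were not similar, and both OGD libraries were below both others. Akt1 and Akt2 stayed abundant, and the sum of neither passed 1.5-fold in any comparison, though single transcripts of both genes did.

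The total of the 4 columns ranged from 331892 to 353381 FPKM, and the number of reads behind them is unknown. Ppargc1a, which encodes PGC-1α, had 0.900 FPKM in Ctrl and 35.1 in PGC-1α, and, after OGD, 0.103 in control and 8.41 in PGC-1α cells, so that the overexpression was visible in both pairs and was lower after OGD. Of 10 neuron markers, 2 had transcripts in the table (Eno2 and Syp), with a summed level between 0.668 FPKM in PGC-1α and 3.70 FPKM in Ctrl+OGD, while the defining markers Rbfox3, Map2 and Tubb3 had none. Of 5 fibroblast markers, 3 had transcripts (Col1a1, Col1a2 and Pdgfrb), and their summed level ranged from 409 to 481 FPKM. Most of this sum came from Col1a1 and Col1a2, with Pdgfrb at 17.2 to 28.3 FPKM, and Dcn and Lum had no transcript. The astrocyte list had 3 of 5 markers, with a sum of 13.6 to 24.0 FPKM and Gfap and Aqp4 without a transcript. The microglia list had 1 of 4 (Cx3cr1, at most 1.22 FPKM) and the oligodendrocyte list 1 of 4 (Mbp, 3.26 to 4.76 FPKM). The labels call these cells hippocampal neurons, and 8 of the 10 neuron markers had no transcript among those analysed here. The part of these markers in the results was not tested.

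Each gene was given the sum of its transcripts. The order of the mean levels over the 4 libraries, all per length, was Akt1 (67.2 FPKM), Pik3r1 (29.8), Akt2 (26.0), Irs1 (22.8), Foxo3 (17.6), Igf1r (15.9), Irs2 (11.0), Pik3ca (7.70), Insr (6.71) and Foxo1 (1.17). Akt1 was above every other gene of the route in every library and Foxo1 was below every other one. All other neighbours in this order had overlapping ranges over the 4 libraries. Of these, Irs1 was above Foxo3, Igf1r above Irs2 and Irs2 above Pik3ca within every library. The remaining neighbours changed order between libraries, so their order is not firm.

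**Figure D1:**
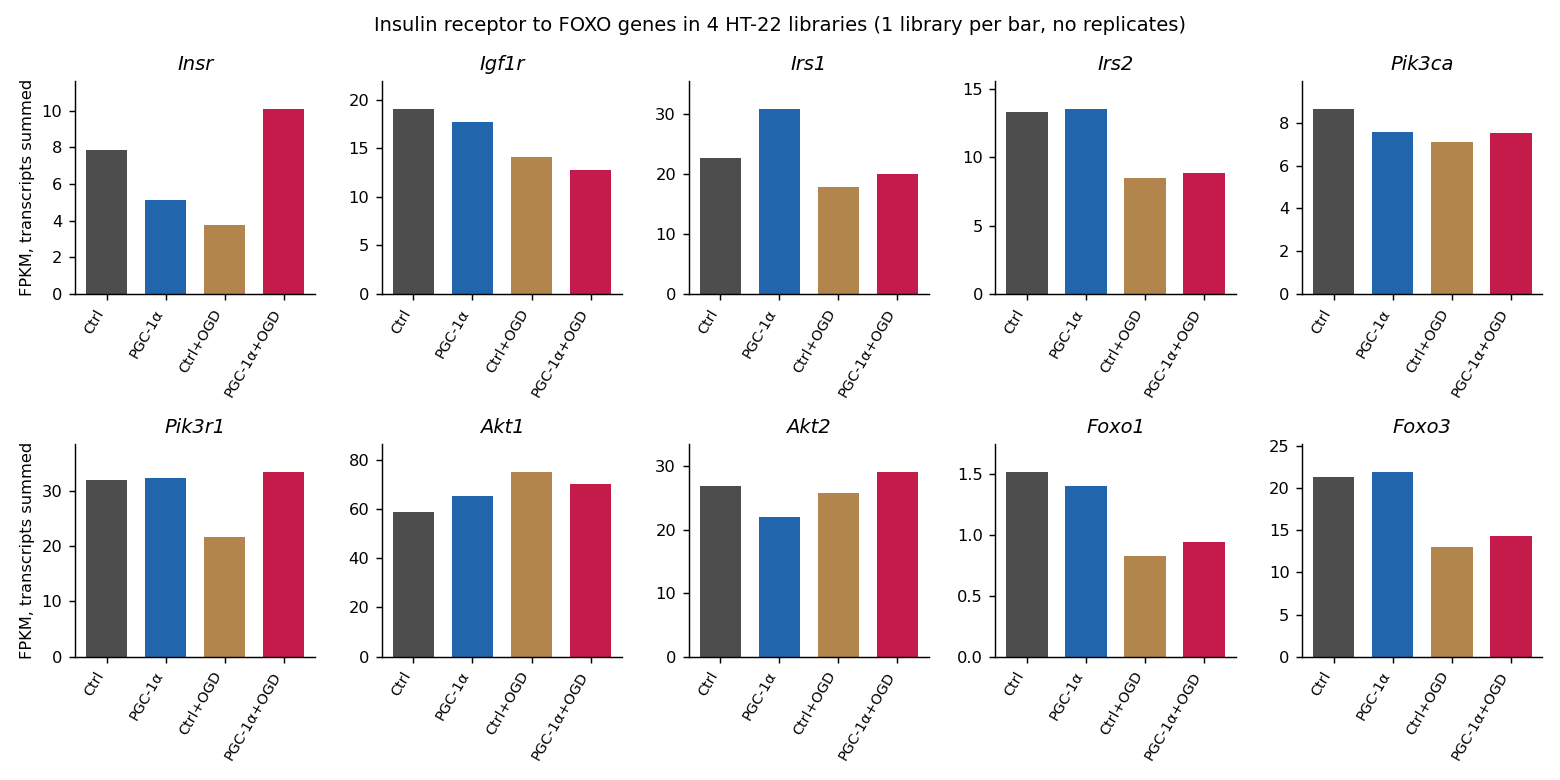
Summed FPKM of the 10 genes, 1 panel per gene with its own linear axis from 0 and 1 bar per library, ordered from receptors to FOXO factors. Insr spans 3.74 to 10.1 FPKM, Akt1 stays highest with 58.5 to 75.1 FPKM, and Foxo1 stays lowest with 0.823 to 1.52 FPKM.

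Fold changes were taken on the log2(FPKM + 1) scale, on which changes of low genes appear smaller than they are. The bound for calling a gene higher or lower was 1.5-fold, a log2 difference of 0.58. In PGC-1α compared with Ctrl, 0 of the 10 genes were higher and 0 were lower, beside 4.91% and 5.63% of all genes compared. In PGC-1α+OGD compared with Ctrl+OGD, 2 were higher (Insr and Pik3r1) and 0 lower, beside 3.08% and 3.82%. In Ctrl+OGD compared with Ctrl, 0 were higher and 3 lower (Insr, Irs2 and Foxo3), beside 6.20% and 7.71%. In PGC-1α+OGD compared with PGC-1α, 1 was higher (Insr) and 1 lower (Irs1), beside 3.82% and 5.22%. These comparisons share libraries: each library enters 2 of them.

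The median log2 fold change of the 10 genes was -0.03 in PGC-1α vs Ctrl, the same as over all genes. It was 0.11 in PGC-1α+OGD vs Ctrl+OGD, beside -0.01 over all genes. It was -0.44 in Ctrl+OGD vs Ctrl, beside -0.02, and -0.16 in PGC-1α+OGD vs PGC-1α, beside 0.00. In Ctrl+OGD vs Ctrl, 9 of 10 were below 0, with Akt1 above it, beside 52.0% of all genes. In both comparisons of OGD with no OGD, which share no library, 6 of the 10 genes were below 0, beside 32.7% of all genes. They were Igf1r, Irs1, Irs2, Pik3ca, Foxo1 and Foxo3, though Pik3ca was at -0.01 in PGC-1α+OGD vs PGC-1α. With transcripts weighted by length, Pik3ca was at 0.13 there, and Pik3r1 was below 0 in both comparisons (-0.51 and -0.74).

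**Figure D2:**
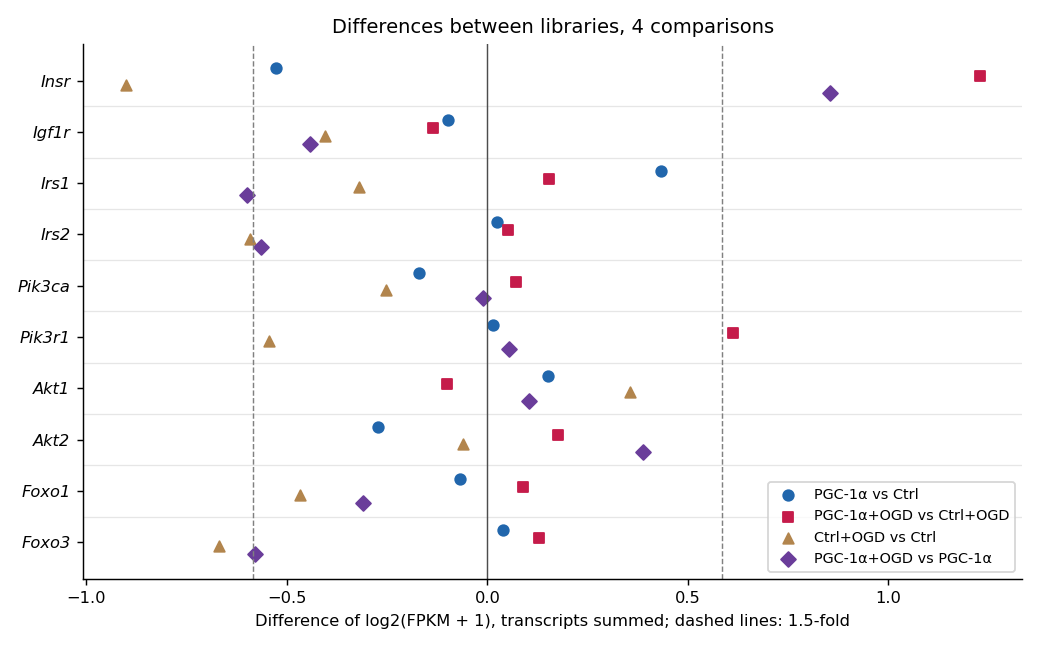
Differences of log2(FPKM + 1) of the 10 genes in the 4 comparisons, 1 point per gene and comparison, with dashed lines at 1.5-fold. Insr lies beyond the lines in 3 comparisons (1.23, -0.90 and 0.85), and Irs1, Irs2, Pik3r1 and Foxo3 each lie beyond one in 1.

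Insr (ENSMUSG00000005534; GRCm38 chromosome 8, 3122061 to 3279617, minus strand) encodes the insulin receptor. Its level was 7.86 FPKM in Ctrl and 5.14 in PGC-1α, and, after OGD, 3.74 in control and 10.1 in PGC-1α cells. Both low values therefore came from a library with only one of the treatments, and the highest value came from the library with both. The difference between PGC-1α+OGD and Ctrl+OGD was larger than that of 99.4% of all genes compared. The PGC-1α difference after OGD minus that without OGD was 1.76 on the log2 scale, in size above that of 98.7% of all genes, and this difference was not tested. PGC-1α vs Ctrl (-0.53) did not reach 1.5-fold, though with 0.1 FPKM added in place of 1 it did (-0.60). Without OGD and with it, the values of Insr moved in opposite directions with PGC-1α.

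Insr was represented by 1 transcript, Insr-201, with 1372 codons. The annotation also holds Insr-203, which includes a short exon that separates the B form of the receptor (with the exon) from the A form (without it), and the A form is the one typical of neurons. The exon, chr8:3181702-3181737 on the minus strand (GRCm38, bases from the GENCODE M21 transcript, printed in lower case throughout since no motif is marked), is shown because Insr-201 has no exon there.
Insr-203 exon: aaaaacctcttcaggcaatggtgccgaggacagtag
These 36 bases are absent from Insr-201, and Insr-203 was not analysed here, so the A and B forms cannot be told apart in these values.

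Igf1r (chromosome 7, 67952827 to 68233668, plus strand) encodes the receptor for insulin-like growth factors, the close relative of Insr that can form hybrid receptors with it. Its level was 19.0 FPKM in Ctrl and 17.7 in PGC-1α, and, after OGD, 14.1 in control and 12.8 in PGC-1α cells. Both OGD libraries were below both libraries without OGD, with log2 differences of -0.40 and -0.44 that did not reach 1.5-fold. The PGC-1α differences were -0.10 without OGD and -0.14 with OGD. The ratio of Insr to Igf1r was 0.412 in Ctrl and 0.290 in PGC-1α, and, after OGD, 0.264 in control and 0.791 in PGC-1α cells, so Igf1r was the more abundant receptor mRNA in every library and Insr came closest to it in PGC-1α+OGD.

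Irs1 (chromosome 1, 82233101 to 82291416, minus strand) encodes the first of the large docking proteins that the receptors phosphorylate. Its level was 22.6 FPKM in Ctrl and 30.8 in PGC-1α, and, after OGD, 17.9 in control and 20.0 in PGC-1α cells. PGC-1α cells without OGD stood highest, with a log2 difference of 0.43 from Ctrl that did not reach 1.5-fold, and PGC-1α+OGD was lower than PGC-1α by 1.5-fold or more (-0.60). Irs1 shares 2822 of its 9144 exonic bases with Gm9747 on the opposite strand. Gm9747 had 0 transcripts in the table, and whether the counting used strand is not stated.

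Irs2 (chromosome 8, 10984681 to 11008458, minus strand) encodes the second docking protein, itself known as a FOXO target in liver. Its level was 13.3 FPKM in Ctrl and 13.6 in PGC-1α, and, after OGD, 8.49 in control and 8.83 in PGC-1α cells. The libraries split by OGD and not by PGC-1α: the OGD differences were -0.59 in control cells and -0.57 in PGC-1α cells, just inside and just outside the 1.5-fold bound, and the PGC-1α differences were 0.02 and 0.05. The ratio of Irs1 to Irs2 was 1.70 in Ctrl and between 2.11 and 2.27 in the other libraries. Irs2 shares 162 exonic bases with 9530052E02Rik on the opposite strand, which had 0 transcripts in the table.

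Pik3ca (chromosome 3, 32397671 to 32468486, plus strand) encodes p110α, the catalytic subunit that makes the lipid signal. Its summed level was 8.65 FPKM in Ctrl and 7.57 in PGC-1α, and, after OGD, 7.09 in control and 7.50 in PGC-1α cells. These 4 values lie close together, and all log2 differences were between -0.25 and 0.07. Below the sum, Pik3ca-201 was at 8.26, 4.28, 6.40 and 6.84 FPKM in the same order. Pik3ca-202, with 946 codons instead of 1068, was at 2.67 FPKM in PGC-1α and listed at 0 in the other 3 libraries. Pik3ca-202 holds no base that the other Pik3ca transcripts lack, so only reads across its splice junctions could tell it apart. In PGC-1α vs Ctrl, Pik3ca-201 alone was -0.81, and the 2 transcripts with 1068 codons together were -0.71, both past 1.5-fold. With transcripts weighted by length, the gene was -0.33 in this comparison.

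Pik3r1 (chromosome 13, 101680563 to 101768217, minus strand) encodes the regulatory subunits that bind phosphorylated adaptors and hold p110. Its longest transcript, Pik3r1-202 with 724 codons, encodes p85α, and Pik3r1-201 with 454 codons encodes the shorter p55α, which starts from a promoter inside the gene. The coding starts of these transcripts are printed to show that they differ from the first codon on, with the start codon in capitals (GENCODE M21 transcript bases; first bases at 101757659 and 101692288 of chromosome 13).
Pik3r1-202, first 60 coding bases: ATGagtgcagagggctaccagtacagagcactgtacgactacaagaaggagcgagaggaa
Pik3r1-201, first 60 coding bases: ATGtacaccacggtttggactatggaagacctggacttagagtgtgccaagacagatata
The 100 bases before each start site are printed to show that the transcripts begin behind different sequences, as RefSeq promoter sequence of build GRCm38.p6, minus strand, with no part in capitals. They are chr13:101768218-101768317 for Pik3r1-202, with 79% G or C, and chr13:101692631-101692730 for Pik3r1-201, with 55%.
Pik3r1-202 upstream: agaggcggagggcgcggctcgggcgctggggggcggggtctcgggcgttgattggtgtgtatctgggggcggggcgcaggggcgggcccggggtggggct
Pik3r1-201 upstream: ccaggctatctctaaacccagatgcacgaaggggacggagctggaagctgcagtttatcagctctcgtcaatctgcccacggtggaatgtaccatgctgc
The transcripts share 2475 exonic bases, while 4638 of 7113 bases of Pik3r1-202 and 448 of 2923 bases of Pik3r1-201 are in no other Pik3r1 transcript of the table.

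The sum of Pik3r1 was 31.9 FPKM in Ctrl and 32.2 in PGC-1α, and, after OGD, 21.6 in control and 33.5 in PGC-1α cells. Ctrl+OGD stood lowest and the other 3 libraries lay close together. PGC-1α+OGD was 1.5-fold or more above Ctrl+OGD (0.61), and the other differences were 0.01, -0.55 and 0.05.

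Pik3r1-201 was at 13.7 FPKM in Ctrl and 1.67 in PGC-1α, and, after OGD, 7.88 in control and 25.3 in PGC-1α cells. It was thus lower with PGC-1α in the absence of OGD (-2.46) and higher with PGC-1α after OGD (1.57). Pik3r1-202 was at 17.8 FPKM in Ctrl and 30.5 in PGC-1α, and, after OGD, 12.8 in control and 7.81 in PGC-1α cells, with PGC-1α differences of 0.74 without OGD and -0.65 with OGD, both past 1.5-fold and opposite to those of Pik3r1-201. Pik3r1-204, a partial transcript, stayed below 0.9 FPKM (0.0934 to 0.885).

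In shares of the sum, Pik3r1-202 made up 55.7% in Ctrl and 94.5% in PGC-1α, and, after OGD, 59.4% in control and 23.3% in PGC-1α cells. The 2 control libraries had nearly the same split, and the 2 PGC-1α libraries lay on opposite sides of it. The shift between PGC-1α and PGC-1α+OGD was -71.2 percentage points, more than in 96.9% of genes with 2 or more transcripts. The median size of this shift over all such genes was 6.95 points. An estimator can move reads between transcripts of a gene, and its part in these values was not tested.

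**Figure D3:**
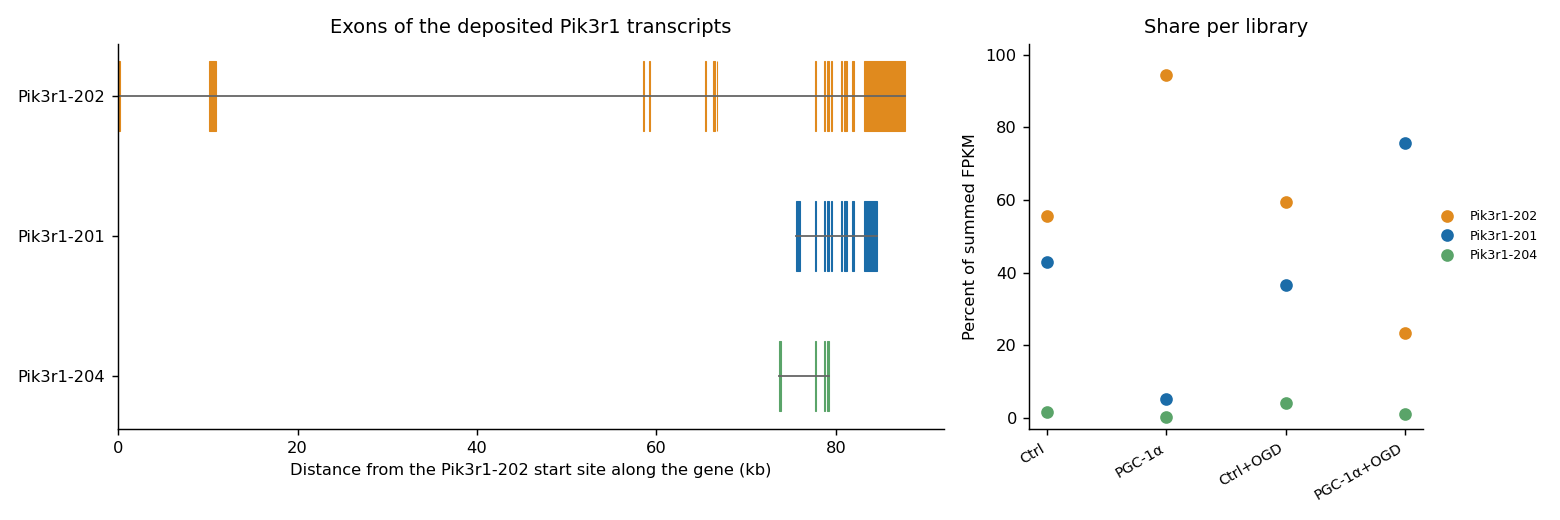
Exons of the 3 Pik3r1 transcripts along the gene, in kilobases from the first start site, and the share of each transcript in the summed FPKM (%), 1 point per transcript and library. Pik3r1-201 starts 75587 bases inside the gene and exceeds Pik3r1-202 in PGC-1α+OGD, with 75.6% against 23.3%, while Pik3r1-202 leads in the other 3 libraries.

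The sum itself depends on the transcript lengths. When transcripts were weighted by length, which is proportional to fragments per gene, Pik3r1 was at 23.4 in Ctrl and 31.2 in PGC-1α, and, after OGD, 16.1 in control and 18.2 in PGC-1α cells. On that scale the OGD libraries were both lower, the difference of PGC-1α+OGD from PGC-1α was -0.74, and that from Ctrl+OGD was 0.17 and no longer past 1.5-fold.

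Akt1 (chromosome 12, 112653821 to 112674884, minus strand) encodes the AKT isoform most tied to growth and survival. Its summed level was 58.5 FPKM in Ctrl and 65.1 in PGC-1α, and, after OGD, 75.1 in control and 70.0 in PGC-1α cells. Both OGD libraries were above both libraries without OGD, with log2 differences of 0.35 and 0.10. The second of these changed sign when transcripts were weighted by length (-0.0042) or when Akt1-201 stood for the gene (-0.05). Akt1 was the only one of the 10 genes above 0 in Ctrl+OGD vs Ctrl. Akt1-201, with all 480 codons, carried 88.3% to 98.7% of the sum. Of the short transcripts, Akt1-208 was at 3.38, 1.19 and 4.77 FPKM in Ctrl, Ctrl+OGD and PGC-1α+OGD, Akt1-206 was at 0.599, 3.68 and 2.48 FPKM, and both were listed at 0 in PGC-1α. Akt1-205 stayed between 0.863 and 1.53 FPKM.

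Akt2 (chromosome 7, 27591552 to 27640826, plus strand) encodes the isoform most tied to glucose uptake under insulin. Its summed level was 26.9 FPKM in Ctrl and 22.1 in PGC-1α, and, after OGD, 25.7 in control and 29.2 in PGC-1α cells. The lowest and the highest value were both in PGC-1α cells, and their log2 difference of 0.39 did not reach 1.5-fold. Akt1 exceeded Akt2 in every library, with ratios of 2.17, 2.95, 2.92 and 2.40 in the order used above.

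Akt2 had 6 transcripts in the table. Akt2-214 was at 16.7 FPKM in PGC-1α+OGD and listed at 0 in the other 3 libraries. In the same library Akt2-201 was at 1.19 FPKM, against 8.34 to 9.66 FPKM elsewhere, and Akt2-205 was at 2.90 FPKM, against 7.38 to 9.51 FPKM. These 3 transcripts have the same 481 codons at the same coding positions. Akt2-214 has no base that the other Akt2 transcripts of the table lack, starts 194 bases after Akt2-205 and has a further intron of 109 bases behind its coding part. The sum of the 3 was 17.8, 16.2, 17.7 and 20.8 FPKM, so the mRNA for this protein varied less than each of the 3 transcripts. Taken alone, Akt2-201, the transcript of highest mean, was lower in PGC-1α+OGD than in Ctrl+OGD (-2.28) and than in PGC-1α (-2.16), opposite to the sums (0.18 and 0.39). Akt2-202, with 438 codons, was at 5.76 to 8.20 FPKM, Akt2-207 was at 2.59 FPKM in Ctrl and at most 0.335 FPKM elsewhere, and Akt2-203 stayed between 0.0292 and 0.607 FPKM.

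Foxo1 (chromosome 3, 52268336 to 52353221, plus strand) encodes the FOXO factor best known for insulin control of glucose production. Its level was 1.52 FPKM in Ctrl and 1.40 in PGC-1α, and, after OGD, 0.823 in control and 0.939 in PGC-1α cells. Both OGD libraries were below both others, with differences of -0.47 and -0.31 at a level where the added 1 FPKM shrinks them. With 0.1 FPKM added instead, Ctrl+OGD vs Ctrl was -0.81. Foxo1 shares 674 of 8665 exonic bases with Gm20402 on the opposite strand, which had 0 transcripts in the table.

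Foxo3 (chromosome 10, 42181841 to 42276755, minus strand) encodes the factor tied to neuronal death genes and antioxidant defense. Its summed level was 21.3 FPKM in Ctrl and 21.9 in PGC-1α, and, after OGD, 13.0 in control and 14.3 in PGC-1α cells. The split again followed OGD: the OGD difference was -0.67 in control cells, past 1.5-fold, and -0.58 in PGC-1α cells, just short of it, while the PGC-1α differences were 0.04 and 0.13. With transcripts weighted by length, the first of these was -0.52 and not past 1.5-fold. Foxo3-203 (672 codons) was at 13.5, 14.5, 9.79 and 11.7 FPKM, Foxo3-204 (the same codons) at 2.57, 2.37, 0.565 and 0.485 FPKM, and Foxo3-202 (244 codons) at 5.21, 5.04, 2.67 and 2.13 FPKM. All of them were lower in both OGD libraries. The ratio of Foxo3 to Foxo1 stayed between 14.0 and 15.8.

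**Figure D4:**
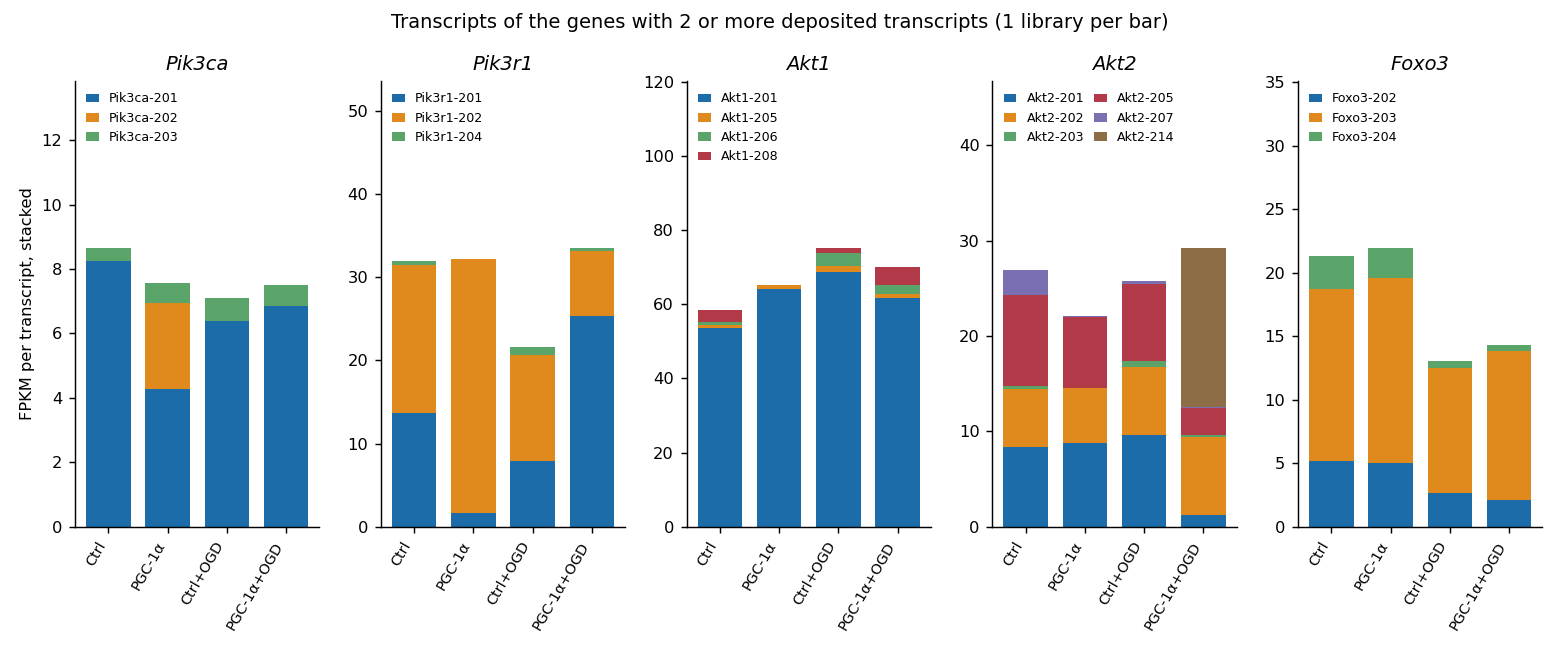
Stacked FPKM of each transcript, 1 bar per library and 1 panel per gene with its own axis, for the 5 genes with 2 or more transcripts. Pik3r1-202 makes up 94.5% of the bar of PGC-1α and 23.3% of that of PGC-1α+OGD, Akt2-214 has a segment in PGC-1α+OGD alone, and Akt1-201 makes up 88.3% or more of each bar.

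Of the 24 transcripts, 19 had a mean of at least 1 FPKM. Those at least 1.5-fold higher or lower numbered 5 in PGC-1α vs Ctrl, 7 in PGC-1α+OGD vs Ctrl+OGD, 7 in Ctrl+OGD vs Ctrl and 11 in PGC-1α+OGD vs PGC-1α, transcripts listed at 0 in a library included. Over all 18301 transcripts compared, the shares were 25.4%, 22.3%, 28.1% and 25.3%. Among the 5 genes with several transcripts, the most abundant one differed between libraries in 1 gene in PGC-1α vs Ctrl (Akt2), 2 in PGC-1α+OGD vs Ctrl+OGD (Pik3r1 and Akt2), 1 in Ctrl+OGD vs Ctrl (Akt2) and 2 in PGC-1α+OGD vs PGC-1α (Pik3r1 and Akt2). Over all 6405 genes with several transcripts, it differed in 19.5%, 18.7%, 19.9% and 20.8%, so such a change is common in this table.

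A pair of motifs was searched on both strands of the RefSeq promoter windows (GRCm38.p6), which hold 300 bases around each start site. The FOXO core was searched as GTAAACA and, for the other strand, as TGTTTAC. The motif of the estrogen-related receptors, partners of PGC-1α, was searched as AAGGTCA and, for the other strand, as TGACCTT. Insr had no window. Among 14 windows of the other 9 members, each motif was found in 1, beside 3.65% and 4.72% of all 32851 windows. The stretches are printed with the motif in capitals, from chr12:112675028-112675056 (minus strand, 161 bases before the start site of Akt1-208) and chr7:67952160-67952188 (plus strand, 86 bases before the RefSeq start site of Igf1r at 67952257, and 656 bases before the start of Igf1r-201 at 67952827).
Akt1, FOXO core: atctaccctctTGTTTACactcctggtga
Igf1r, estrogen-related receptor motif: gtgctcggcttTGACCTTcagcgagccgg
A match says only that these letters are present. For neither gene did the PGC-1α differences of the summed level reach 1.5-fold. Most of the Akt1 sum came from Akt1-201, which starts at 112674276, further from the motif than Akt1-208. Akt1-208 alone, at a low level and listed at 0 in PGC-1α, was -2.13 without OGD and 1.40 with OGD. A part of the motif in these values was not tested.

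The genes around this route were taken from 7 lists of 93 genes, of which 73 had a transcript in the table and 72 could be compared. Of these 72, 6 were higher and 8 lower in PGC-1α vs Ctrl, and 5 higher and 2 lower in PGC-1α+OGD vs Ctrl+OGD, where the background shares are 4.91% and 5.63%, and 3.08% and 3.82%. When OGD was compared with no OGD, 0 were higher and 12 lower in control cells (background 6.20% and 7.71%), and 2 were higher and 5 lower in PGC-1α cells (background 3.82% and 5.22%). Their medians were -0.05, -0.02, -0.13 and -0.15, beside -0.03, -0.01, -0.02 and 0.00 over all genes.

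Of 5 ligands, binding proteins and other receptors compared, 1 was higher and 0 lower in each PGC-1α comparison. Over all genes, 4.91% were higher and 5.63% lower without OGD, and 3.08% and 3.82% after it. Igf1, the growth factor that activates Igf1r, was at 1.01 FPKM in Ctrl and 4.86 in PGC-1α, and, after OGD, 0.576 in control and 0.979 in PGC-1α cells. It was high in PGC-1α alone, with a log2 difference of 1.55 from Ctrl and of -1.57 for PGC-1α+OGD vs PGC-1α. Igfbp7, a secreted binding protein, was at 1.76, 2.70, 2.16 and 5.58 FPKM and 1.06 higher in PGC-1α+OGD than in Ctrl+OGD.

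Of 6 adaptors compared, 1 was lower in PGC-1α vs Ctrl (5.63% of all genes) and 1 was higher in PGC-1α+OGD vs Ctrl+OGD (3.08%). Grb2, which links receptors to RAS, was at 29.5 FPKM in Ctrl and 27.0 in PGC-1α, and, after OGD, 19.1 in control and 29.2 in PGC-1α cells. Like Insr and Pik3r1 it stood lowest in Ctrl+OGD, and PGC-1α+OGD was 0.59 above that library. Sh2b2, an adaptor of the insulin receptor, was at 11.5 FPKM in Ctrl and 6.84 in PGC-1α (-0.67). Of the other 5 PI3K subunits compared, 0 passed 1.5-fold in any comparison, beside the shares of all genes given above. Pik3r2, which encodes p85β, was at 58.0 to 71.4 FPKM and above Pik3r1 in every library.

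Of the 10 kinases and substrates beside and below AKT, Tbc1d4, the AKT substrate that controls glucose transporter traffic, was 0.87 higher in PGC-1α than in Ctrl, at a low 3.21 against 1.30 FPKM. Akt1s1, an AKT substrate that restrains mTORC1, was at 28.1 FPKM in control and 15.8 FPKM in PGC-1α cells after OGD (-0.79). The others did not pass 1.5-fold with PGC-1α. In PGC-1α vs Ctrl, 1 of the 10 was thus higher and 0 lower, beside 4.91% and 5.63% of all genes. In PGC-1α+OGD vs Ctrl+OGD, 0 were higher and 1 lower, beside 3.08% and 3.82%.

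Of 13 negative regulators compared, 2 were higher and 1 lower in PGC-1α vs Ctrl, beside 4.91% and 5.63% of all genes. In PGC-1α+OGD vs Ctrl+OGD, 1 was higher, beside 3.08%. After OGD in control cells 0 were higher and 2 lower, beside 6.20% and 7.71%. Ptpn1, the phosphatase that removes phosphate from the insulin receptor, was at 17.3 FPKM in Ctrl and 12.7 in PGC-1α, and, after OGD, 9.11 in control and 16.9 in PGC-1α cells. PGC-1α+OGD was 0.82 above Ctrl+OGD, and the receptor and its phosphatase were both lowest in Ctrl+OGD. Trib3, a pseudokinase that binds AKT and a target of the stress factor ATF4, was at 145 FPKM in Ctrl and 60.8 in PGC-1α (-1.25). After OGD it was at 106 FPKM in control and 90.3 FPKM in PGC-1α cells. Ptprf (0.93) and Tns3 (0.67) were higher in PGC-1α than in Ctrl.

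Among 12 other FOXO factors and regulators, 0 passed 1.5-fold with PGC-1α, beside the shares of all genes given above. Foxo4 was at 13.6, 9.98, 7.72 and 7.35 FPKM and was lower in Ctrl+OGD than in Ctrl (-0.74), as Foxo3 was.

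Of 21 FOXO target genes compared, 2 were higher and 6 lower in PGC-1α vs Ctrl, beside 4.91% and 5.63% of all genes. In PGC-1α+OGD vs Ctrl+OGD, 2 were higher and 1 lower, beside 3.08% and 3.82%. In Ctrl+OGD vs Ctrl 0 were higher and 8 lower, beside 6.20% and 7.71% of all genes. The median there was -0.38 beside -0.02 over all genes. In PGC-1α+OGD vs PGC-1α 1 was higher and 1 lower, beside 3.82% and 5.22%. Of those named here, Bcl2l11 (-1.05), Bbc3 (-0.74), Gadd45a (-0.63) and Klf15 (-0.62) were among the 8. Many of these genes also answer to p53, ATF4 or other factors, and FOXO activity was not measured.

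Pdk4, which keeps pyruvate out of the citrate cycle and is also a target of PGC-1α, was at 4.90 FPKM in Ctrl and 11.0 in PGC-1α, and, after OGD, 5.31 in control and 9.96 in PGC-1α cells. It was high in both PGC-1α libraries, with differences of 1.02 and 0.80. Sod2, the mitochondrial superoxide dismutase, was 0.69 higher in PGC-1α than in Ctrl and 0.30 higher after OGD, the latter short of 1.5-fold.

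Gadd45a, a growth arrest gene, was at 129 FPKM in Ctrl and 47.7 in PGC-1α, and, after OGD, 83.3 in control and 72.65 in PGC-1α cells. Ctrl was highest and PGC-1α lowest (-1.42), as for Trib3. Klf15, a regulator of amino acid and glucose metabolism, was -0.93 and Bbc3, which encodes the death protein PUMA, -0.87 in the same comparison. Bcl2l11, which encodes the death protein BIM, was at 9.42, 9.47, 4.02 and 6.98 FPKM, with its lowest value in Ctrl+OGD and 0.67 more in PGC-1α+OGD. Ccng2, a cyclin tied to arrest, was lower with PGC-1α in both pairs, -0.66 in PGC-1α vs Ctrl and -0.96 in PGC-1α+OGD vs Ctrl+OGD.

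**Figure D5:**
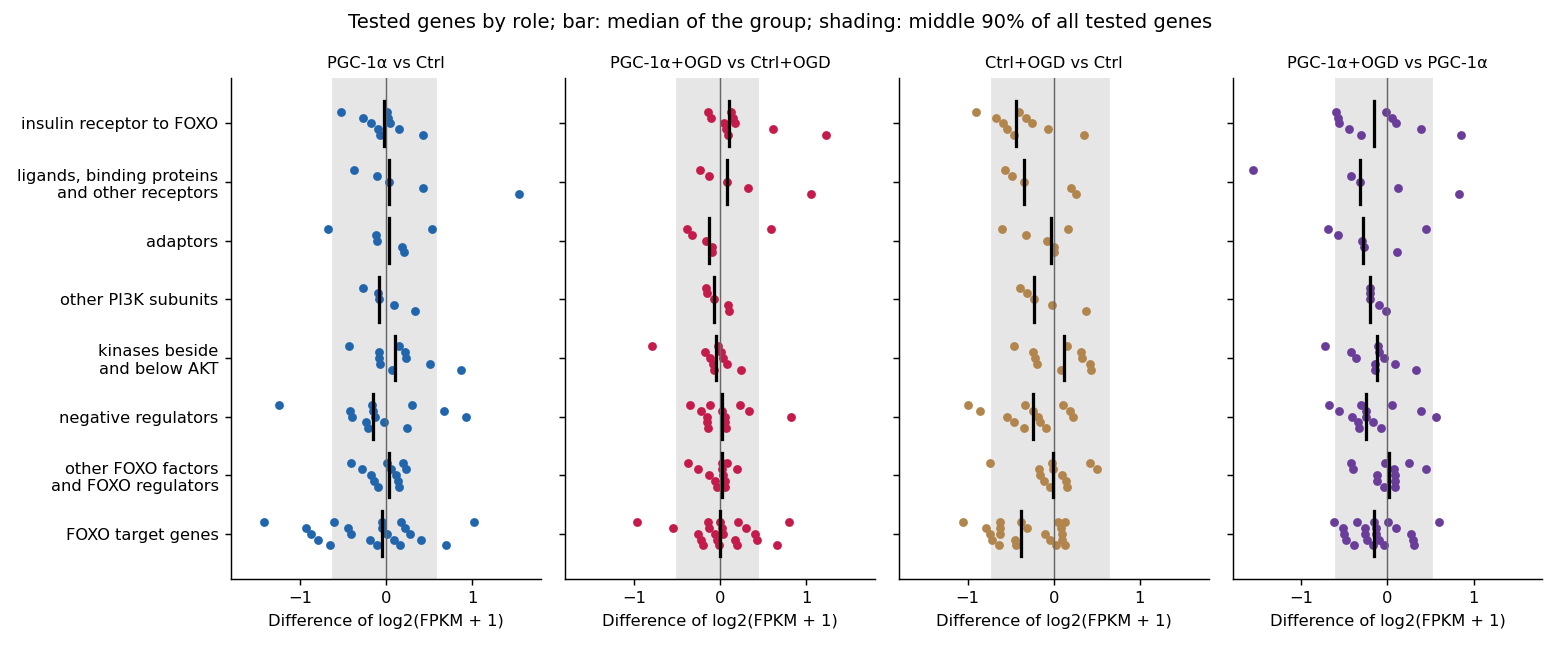
Differences of log2(FPKM + 1) of the compared genes of each pathway list, 1 point per gene and 1 panel per comparison. The black bars mark the median of a list and the shading holds the middle 90% of all genes compared. FOXO target genes spread from -1.42 to 1.02 in PGC-1α vs Ctrl, while the other PI3K subunits stay within the shading in every panel.

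The genes whose values over the 4 libraries were most like those of Insr, after centring log2(FPKM + 1) on its mean, were Cdk19, Slc25a12 and Brd8 among 10603 genes. Their root mean square differences from Insr were 0.0926, 0.0927 and 0.106. Slc25a12, which encodes a mitochondrial aspartate and glutamate carrier, was at 8.58 FPKM in Ctrl and 6.85 in PGC-1α, and, after OGD, 4.26 in control and 11.6 in PGC-1α cells. With 4 libraries many genes can follow any one pattern, and the likeness is given as a description.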

How the data were processed

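RNA-Seq libraries of control and PGC-1α HT-22 cells, without and with OGD, were analysed, grouped by their sample records. Per the labels, the authors aligned the reads to GRCm38 with HISAT2 2.1.0 (submitters' processing notes). The deposited values per transcript were taken as FPKM, a unit that neither the labels nor the table names, because no value is below 0 and the totals vary by library. The program that made them is not given in the sources used here. Reads per library are unknown (of the low values within 10 steps of 0, at most 40.0% lay near whole steps), so no counting error can be given. The highest value of each transcript was 0.500 FPKM or more.

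Transcripts were matched by identifier without version to GENCODE M21. This matched 25822 of 25889 transcripts (99.7%, 11502 genes), and the others were left out. Transcripts were summed per gene, and the 10604 genes that averaged 1 FPKM or more were compared as log2(FPKM + 1) without scaling and without a test. The members and lists were chosen with earlier results of these data known. The text names all members, Ppargc1a, up to 3 genes of each list with the largest rise and fall past 1.5-fold in each PGC-1α comparison, and the 3 genes nearest to Insr. Pik3r2 and Foxo4 were named after their values were seen. Alternatives were the transcript of highest mean, a pseudocount of 0.1, median ratio and upper quartile scaling, no filter, a mean of at least 5 FPKM, 2-fold, and, chosen after seeing the data, weighting by length. The list of FOXO targets was written from general knowledge. Protein sequences were not used here. The tools were Python 3.11.15 with pandas 2.3.3 and numpy 2.4.6, and figures were drawn with matplotlib 3.10.9. The computation was tested on simulated gene values without noise, which checks the arithmetic only and not replicate or transcript-level error.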

Additional observations from a re-analysis of the deposited data

Results flagged for a closer look

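Both main Pik3r1 transcripts differed by 1.5-fold or more with PGC-1α in opposite directions without and with OGD. For Pik3r1-201 the log2 difference with OGD minus that without was 4.03 (1.57 against -2.46). For Pik3r1-202 it was -1.39 (-0.65 against 0.74). Akt1-208 also passed 1.5-fold in opposite directions, with -2.13 without OGD and 1.40 with OGD. It is not flagged because it is listed at 0 in PGC-1α, so the size of its first difference depends on the added 1 FPKM. Each value rests on 1 library per group, so the difference between the effects was not tested. Among all 18301 transcripts compared, 5.17% passed 1.5-fold in opposite directions in this way, beside 3 of the 19 compared transcripts of the members (15.8%) when Akt1-208 is counted. Among summed genes 0.943% did, with 0 of the 10 members.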

How the results depend on the processing

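With 1 library per group, no library could be left out, and no paired analysis was possible because the groups share no replicates. Of 40 fold changes of the members, 24 kept their direction and side of 1.5-fold under all 5 alternatives. Of the 7 that passed it, 4 did so under all 5, namely Insr in 3 comparisons and Irs1 in PGC-1α+OGD vs PGC-1α. Insr, Igf1r, Irs1, Irs2 and Foxo1 have 1 transcript each in the table. For them, 2 of the 5 (the transcript of highest mean and weighting by length) leave the values as they are by construction. Both the 24 and the 4 include such values. When the transcript of highest mean stood for the gene, Pik3r1 in PGC-1α+OGD vs Ctrl+OGD turned from 0.61 to -0.65, and Akt2 from 0.18 to -2.28 there and from 0.39 to -2.16 for OGD in PGC-1α cells. The members past 1.5-fold then numbered 2 in place of 0 in PGC-1α vs Ctrl and 4 in place of 2 in PGC-1α cells with against without OGD, and other pathway genes 13 in place of 7 for PGC-1α after OGD. With a pseudocount of 0.1 the members numbered 1 in PGC-1α vs Ctrl and 4 in PGC-1α cells with against without OGD. Members past 1.5-fold in opposite directions with and without OGD numbered 1 under either of these settings, in place of 0. With transcripts weighted by length, chosen after seeing the data, the members past 1.5-fold for PGC-1α after OGD numbered 1 in place of 2. At 2-fold the members numbered 1 in PGC-1α+OGD vs Ctrl+OGD, 0 in place of 3 for OGD in control cells and 0 in place of 2 for OGD in PGC-1α cells. The other pathway genes at 2-fold numbered 4 in place of 14 for PGC-1α without OGD, 1 in place of 7 for PGC-1α with OGD, 1 in place of 12 for OGD in control cells and 1 in place of 7 for OGD in PGC-1α cells. At 1.5-fold and a mean of at least 5 FPKM, they numbered 4 in place of 7 for OGD in PGC-1α cells. For Irs2 in Ctrl+OGD vs Ctrl, median ratio scaling gave -0.57, short of 1.5-fold, and for Foxo3 the transcript of highest mean gave -0.43. The cause of these changes was not tested, except that a higher bound passes fewer genes by construction. All transcripts of the members are of the protein-coding type, so the shares did not change when others were left out.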
